A study of Mus musculus with 16 samples.

Results

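The 10 genes described here are markers of stress in the endoplasmic reticulum and of the integrated stress response: Atf4, Ddit3, Trib3, Asns, Chac1, Sesn2, Hspa5, Xbp1, Atf6 and Dnajb9. They were taken by symbol from a table of 53801 genes. All 10 were among the 21768 genes that passed the filter on low counts. RNA was sequenced from cells that the labels call oligodendrocytes, the myelin-forming glia, isolated from the brains of male mice by magnetic sorting. The 16 libraries fall into 4 groups of 4: wild-type C57BL/6J Jcl mice on a normal control diet (WT_NCD) or a high-fat diet (WT_HFD), and homozygous App NL-G-F/NL-G-F knock-in mice on the same diets (App_NCD and App_HFD). In the knock-in, the mouse's own App gene carries a humanised amyloid-β sequence with the Swedish, Beyreuther/Iberian and Arctic mutations, and the labels name no restriction to a cell type. Fat gave 12.5% of the energy of the control diet and 60.0% of that of the high-fat diet. Each diet was given for 6 months from 2 months of age, and all groups were sampled at 8 months. Wild-type mice were purchased and knock-in mice were kept as inbred lines, so genotype and source of the mice cannot be told apart. Libraries are numbered as in the labels, which do not state that each number is a separate mouse, so p-values measure the spread between these libraries.

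When unfolded proteins build up in the endoplasmic reticulum, sensors in its membrane start the unfolded protein response. ATF6 is cut and enters the nucleus, IRE1 splices the Xbp1 transcript into the form that encodes an active factor, and PERK phosphorylates the initiation factor eIF2. Other kinases phosphorylate eIF2 in response to amino acid shortage, viral RNA or haem shortage, and this shared step, the integrated stress response, lowers general protein synthesis while it favours translation of Atf4. ATF4 then raises genes of amino acid supply and, with the factor CHOP, genes of cell death. Myelin is made from large amounts of membrane protein and lipid, and oligodendrocytes are known to be sensitive to this response in disorders of myelin. The transcript level measures neither splicing of Xbp1 nor translation of Atf4.

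The promoters of some of these genes hold the short DNA elements through which the response acts, and the values below refer back to them. Windows of 250 bases before the start of the gene were searched on both strands in the RefSeq promoters of GRCm38.p6. Distances are counted from the RefSeq start, while the gene positions given further on are GENCODE spans. For Hspa5 and Asns the RefSeq start lies 120 and 45 bases downstream of the GENCODE start, so their elements lie inside the GENCODE span. The ER stress element, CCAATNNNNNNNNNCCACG, was in 37 of 32851 promoters (0.113%). The C/EBP-ATF response element, TGATGNAA, was in 1134 (3.45%), and the core of the unfolded protein response element, TGACGTGG, was in 185 (0.563%). Among the 9 members with a promoter in the table, Hspa5 held the ER stress element, and Asns and Chac1 held the C/EBP-ATF element. No match was found for Atf4, Ddit3, Trib3, Sesn2, Xbp1 and Dnajb9. The sequences of these elements follow, each 5′ to 3′ on the strand named, with the motif in capitals. Creld2 and Pdia6 are shown because their levels followed that of Hspa5 most closely, and Atf3 because it rose in the knock-in. Cebpg, Aldh18a1, Gdf15, Edem1, Edem2, Os9 and Eif2ak2, which also rose in the knock-in, held no match to these elements. Ube2j1, which rose on the control diet, held the core of the unfolded protein response element, 68 to 61 bases before the start. Whether an element bears on a rise was not tested.
Hspa5, chr2:34772020-34772048, plus strand, 65 to 47 bases before the start: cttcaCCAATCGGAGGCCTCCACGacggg
Creld2, chr15:88819515-88819543, minus strand, 126 to 108 bases before the start: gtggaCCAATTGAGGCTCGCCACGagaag
Pdia6, chr12:17266486-17266514, plus strand, 98 to 80 bases before the start: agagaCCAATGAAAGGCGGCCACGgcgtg
Asns, chr6:7693220-7693237, minus strand, 23 to 16 bases before the start: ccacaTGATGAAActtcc
Chac1, chr2:119351044-119351061, minus strand, 193 to 186 bases before the start: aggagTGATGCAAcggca
Atf3, chr1:191183431-191183448, plus strand, 110 to 103 bases before the start: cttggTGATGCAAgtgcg
A match is a run of letters and not evidence of binding. The ER stress element was in 6 of the 17 genes of a chaperone and folding list with a promoter in the table, namely Hsp90b1, Calr, Canx, Dnajc3, Creld2 and Pdia6. In a list of degradation and translocation genes it was in 2 of 17, Syvn1 and Derl3. The C/EBP-ATF element was in 9 of the 27 genes of an ATF4 and CHOP list with a promoter in the table. Counted by gene over all 27025 with a promoter, the ER stress element was in 35 and the C/EBP-ATF element in 1056.

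Libraries held 64538297 to 217925484 counts. The library App_NCD 553 stood apart: it had 18928 genes detected against 27151 to 30617 in the other 15, and 39.4% of its counts came from mitochondrial genes against 1.22% to 4.62%. Its scaling factor (TMM) was 0.493 against 0.984 to 1.11 in the other 15, so its scaled levels are higher than plain totals would give. Markers of mature oligodendrocytes summed to 26951 to 50319 CPM (counts scaled to a common library total) across libraries, so the labelled cell type was present. Markers of other cells were present too. Astrocyte markers summed to 3143 to 4888 CPM in WT_NCD, 3607 to 5249 in WT_HFD, 2008 to 6468 in App_NCD (highest in 553) and 2611 to 3739 in App_HFD. Endothelial markers summed to 244.2 to 450.9, 262.0 to 514.5, 202.7 to 353.9 and 262.5 to 311.2 CPM in the same order. Oligodendrocyte precursor markers summed to 630.3 to 656.0, 634.2 to 787.9, 426.9 to 1122 and 500.8 to 616.6 CPM. Homeostatic microglia markers (12 genes) summed to 3624 to 6005 CPM in WT_NCD, 2731 to 5116 in WT_HFD, 6865 to 12891 in App_NCD and 8347 to 14071 in App_HFD. Of those 12 markers, 7 passed the test as higher in the knock-in on the control diet and 10 on the high-fat diet. The 12 disease-associated microglia markers summed to 623 to 853 CPM in wild type and 4728 to 8167 CPM in the knock-in, and all 12 passed on each diet. Choroid plexus and ependyma markers summed to 17699 to 36223 CPM in wild type and 7062 to 21000 CPM in the knock-in. Pericyte and smooth muscle markers (7 genes) summed to 157.5 to 343.8 CPM in wild type and 130.5 to 198.5 CPM in the knock-in, with 3 lower on the control diet and 1 on the high-fat diet. The 5 erythroid markers all passed as lower in the knock-in on the high-fat diet, with a median log2 fold change of -3.47. They summed to 9049 CPM in WT_HFD 2 and 4719 in WT_HFD 16 against 147.0 to 466.6 in App_HFD, and 0 of 5 passed on the control diet. No marker of the microglial lists was at 0 in any library. In bulk RNA, a change in the number of cells of a type and a change in RNA per cell cannot be told apart. The part of these markers in the results that follow was not tested.

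Per kilobase of exon, so that genes can be compared, Hspa5 had the highest level of the members, at 215.6 ± 58.1 CPM per kb (SD, n = 15 libraries without App_NCD 553). Atf4 at 40.4 ± 5.91, Dnajb9 at 33.1 ± 5.75 and Xbp1 at 31.7 ± 4.88 CPM per kb came next, with overlapping spreads. Within libraries, Atf4 was above Xbp1 in 14 of 15 and above Dnajb9 in 11 of 15, while Dnajb9 was above Xbp1 in 8 of 15. Atf6 at 11.0 ± 1.27 and Ddit3 at 10.8 ± 1.36 CPM per kb overlapped, with Atf6 the higher in 7 of 15 libraries. Sesn2 stood at 3.06 ± 0.365, Asns at 0.494 ± 0.122 and Trib3 at 0.425 ± 0.169 CPM per kb, the last pair overlapping. Chac1, at 0.0896 ± 0.0389 CPM per kb, was close to the limit of detection, with 5 to 49 counts per library. Trib3, Asns and Chac1 rested on the fewest counts.

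**Figure D1:**
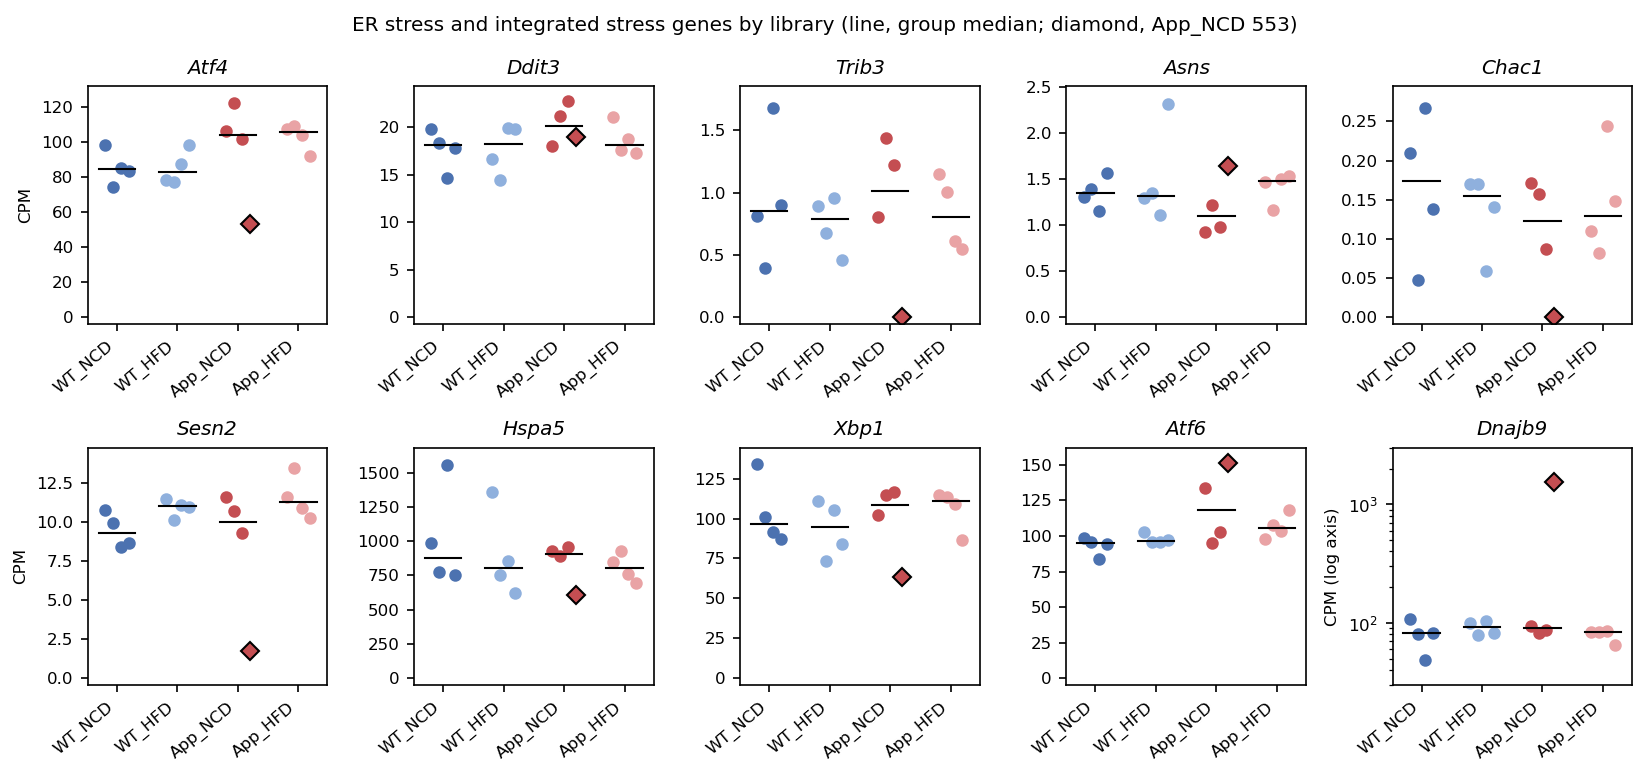
Level of each of the 10 genes in CPM, 1 point per library, on linear axes that include 0 except for Dnajb9, which has a log axis; the line is the group median and the diamond is App_NCD 553. For Atf4 the other 3 App_NCD libraries, at 101.7 to 122.3 CPM, lie above all 8 wild-type libraries, and for Dnajb9 the diamond lies at 1536 CPM while the other 15 lie at 48.7 to 107.9.

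The first question is whether the knock-in changed these genes. None of the 10 passed edgeR's quasi-likelihood test at an adjusted p under 0.05 on either diet with all 16 libraries, while 8.39% of all genes tested passed on the control diet and 7.14% on the high-fat diet. On the control diet Atf6 and Dnajb9 had the smallest unadjusted p of the members in edgeR, 0.018 and 0.00557 (adjusted p = 0.110 and 0.0587). On the high-fat diet no member had an unadjusted p under 0.05. DESeq2 also called 0 members on each diet, beside 3398 of 21768 genes on the control diet and 2508 on the high-fat diet. The median log2 fold change of the 10, knock-in minus wild type, was -0.08 on the control diet and 0.10 on the high-fat diet, and that of all genes was -0.02 and 0.01. Without App_NCD 553, 1 member of 10, Atf4, passed on the control diet and 0 on the high-fat diet, with 17.5% and 19.3% of all genes passing.

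Atf4 (ENSMUSG00000042406, mm10 chromosome 15, 80255184 to 80257541, plus strand) encodes the central transcription factor of the integrated stress response. In WT_NCD libraries 4, 5, 11 and 12 it stood at 98.2, 74.4, 85.3 and 83.7 CPM. In WT_HFD libraries 2, 3, 15 and 16 it stood at 78.3, 77.2, 87.7 and 98.7 CPM, the same range as on the control diet. App_NCD libraries 537, 538, 545 and 553 had 106.4, 122.3, 101.7 and 53.0 CPM, so 3 libraries lay above every wild-type library and 553 lay below all of them. App_HFD libraries 547, 559, 560 and 561 had 107.8, 109.5, 104.3 and 92.3 CPM, of which 561 overlapped the wild type. Over all 16 libraries Atf4 had a log2 fold change of 0.17 ± 0.197 (SE; adjusted p = 0.608) under control feeding and 0.28 ± 0.198 (adjusted p = 0.567) under high fat. The control-diet value was -0.03 when libraries were scaled by their totals, a scaling that put the all-gene median at -0.29. Leaving out App_NCD 538 gave -0.01.

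Leaving out App_NCD 553 gave a log2 fold change of Atf4 of 0.34 ± 0.110 on the control diet (edgeR, adjusted p = 0.0467), or 1.26-fold with a 95% interval of 1.07 to 1.49. On the high-fat diet the value without 553 was 0.25 ± 0.102 (adjusted p = 0.0995). The mean of the genotype effects over the diets, a contrast added after seeing the data, was 0.30 ± 0.0751 (edgeR, adjusted p = 0.00677) without 553 and 0.22 ± 0.140 (adjusted p = 0.307) with it. In that contrast 33.6% of all genes passed without 553 and 17.0% with it, and Atf4 was the single member that passed without 553. The control-diet call was lost when libraries without 553 were scaled to the mature oligodendrocyte markers, where the value was 0.60 (adjusted p = 0.0601) and the median of all genes was 0.22. In CPM, the 3 App_NCD libraries did not overlap WT_NCD for Atf4 alone among the members, as for 26.8% of all genes. For all 16 libraries 0 members and 15.9% of genes did not overlap on the control diet, and 0 members and 25.1% on the high-fat diet. The wild-type libraries with the most Atf4, WT_NCD 4 and WT_HFD 16, also had the highest wild-type homeostatic microglia scores, 8.33 and 8.10 in mean log2 CPM against 7.23 to 7.75 in the other 6. WT_HFD 15, next in wild-type Atf4 at 87.7 CPM, had the lowest of these scores, 7.23. Homeostatic microglia scores of the App libraries were 8.04 in 553 and 8.57 to 9.32 in the other 7. WT_NCD 4 and WT_HFD 16 also had the highest wild-type scores of 19 immediate early genes, 7.05 and 6.93. The other 6 wild-type libraries had 6.22 to 6.60. A link of Atf4 with any of these scores was not tested.

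**Figure D2:**
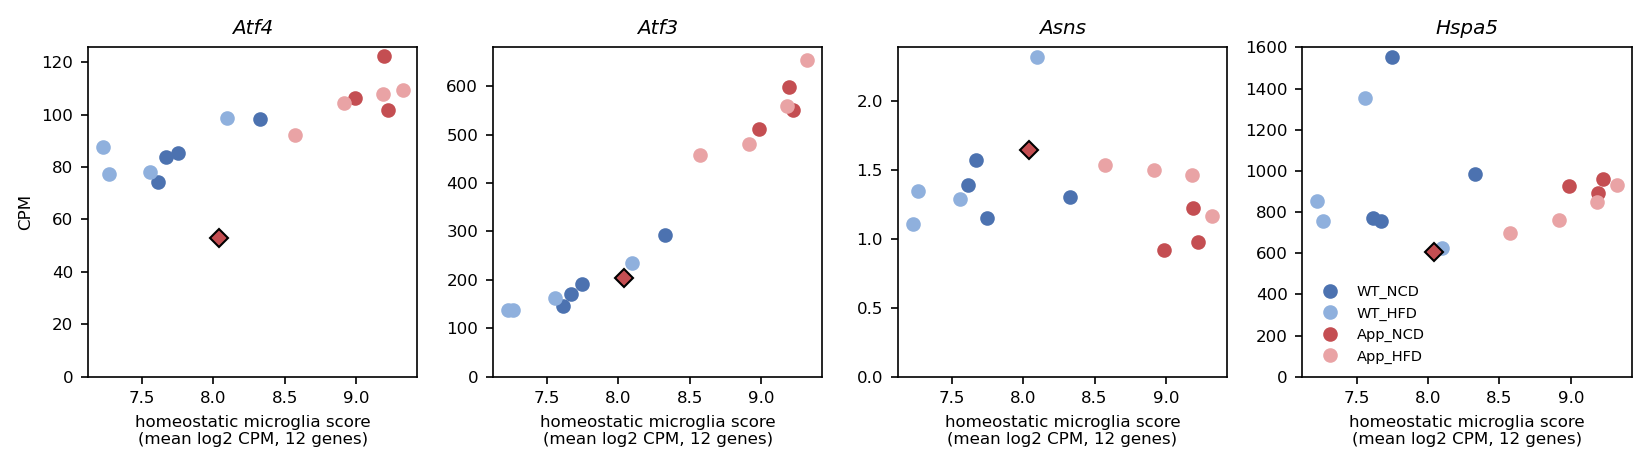
CPM of Atf4, Atf3, Asns and Hspa5 (vertical axis, from 0) against the mean log2 CPM of 12 homeostatic microglia markers (horizontal axis), 1 point per library, coloured by group, with App_NCD 553 as a diamond. The App libraries other than 553 lie to the right of every wild-type library, at 8.57 to 9.32, where Atf3, at 458.8 to 655.2 CPM, lies above every wild-type library, while Atf4, at 92.3 to 122.3 CPM, and Asns, at 0.920 to 1.54 CPM, overlap the wild type.

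Ddit3 (ENSMUSG00000025408, chromosome 10, 127290774 to 127296288, plus strand) encodes CHOP, the factor that links prolonged stress to cell death. Its levels were 14.7 to 19.8 CPM in WT_NCD, 14.4 to 19.9 in WT_HFD, 18.0 to 22.8 in App_NCD and 17.2 to 21.1 in App_HFD. The groups overlapped throughout, and App_NCD 553, at 19.0 CPM, lay within the range of the others. That place rests on its scaling factor of 0.493. With 669 of 71444546 counts, 553 would be the lowest of the 16 by plain totals. The log2 fold change was 0.20 ± 0.146 (adjusted p = 0.405) under control feeding and 0.08 ± 0.146 (adjusted p = 0.907) under high fat, and each became negative under library totals, -0.08 and -0.02. The 95% intervals were 0.923-fold to 1.42-fold and 0.851-fold to 1.31-fold. Ddit3 shares 68 bases with Mars on the opposite strand and 2925 bases with a second gene ID of the same symbol, so its counts are uncertain where the counting could split such reads.

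Trib3 encodes a pseudokinase that dampens the response, and it lay at 0.394 to 1.68 CPM in wild type. WT_NCD had 0.812, 0.394, 1.68 and 0.900 CPM in libraries 4, 5, 11 and 12, and WT_HFD had 0.460 to 0.960. App_NCD 537, 538 and 545 had 0.806, 1.44 and 1.22 CPM, and 553 had 0 counts of 71444546, which allows up to 0.0852 CPM (3 counts). App_HFD had 0.547 to 1.15 CPM. The groups overlapped, and the 95% interval of the control-diet fold ran from 0.333 to 2.58. Its log2 difference was -0.11 ± 0.695 (adjusted p = 0.936) there and 0.14 ± 0.700 (adjusted p = 0.976) under high fat. Without 553 the control-diet value was 0.25 ± 0.415 (adjusted p = 0.730).

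Asns makes asparagine and is a classic target of ATF4 through the element printed above. WT_NCD libraries had 1.15 to 1.57 CPM and WT_HFD libraries 1.11 to 2.32, the highest in library 16. App_NCD 537, 538 and 545 had 0.920, 1.22 and 0.974 CPM and 553 had 1.65, while App_HFD had 1.17 to 1.54. No group stood apart. Knock-in minus wild type, the log2 value was -0.19 ± 0.273 (adjusted p = 0.675) under control feeding, -0.41 ± 0.247 (adjusted p = 0.265) there without 553, and -0.10 ± 0.272 (adjusted p = 0.947) under high fat. The control-diet interval without 553 reached from 0.522-fold to 1.08-fold. Chac1, which degrades glutathione and also holds the element, lay at 0.0469 to 0.268 CPM in wild type and 0 to 0.244 in the knock-in. Its log2 fold changes of -0.57 ± 0.647 (adjusted p = 0.589) and 0.12 ± 0.651 (adjusted p = 0.979) had 95% intervals of 0.259-fold to 1.75-fold and 0.415-fold to 2.84-fold, so no difference was detectable at this depth. Without 553, where Chac1 had 0 counts, the control-diet value was -0.29 ± 0.547 (adjusted p = 0.759).

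Sesn2 encodes sestrin 2, which restrains the growth kinase mTORC1 when amino acids are short. It stood at 10.8, 9.94, 8.41 and 8.68 CPM in WT_NCD and at 10.2 to 11.5 CPM in WT_HFD. App_NCD had 11.6, 10.7, 9.28 and 1.76 CPM, the last in 553, and App_HFD had 10.3 to 13.5. Apart from 553 the groups overlapped. The log2 fold change was -0.18 ± 0.361 (adjusted p = 0.779) under control feeding and 0.13 ± 0.124 (adjusted p = 0.516) without 553, so the sign changed when 553 was left out. On the high-fat diet it was 0.08 ± 0.360 (adjusted p = 0.970), and under library totals it was -0.01. Sesn2 shares 6089 bases with Gm12981, annotated on the same strand, so its counts are uncertain to that extent.

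Hspa5 (ENSMUSG00000026864, chromosome 2, 34771970 to 34777547, plus strand) encodes BiP, the main chaperone of the endoplasmic reticulum and the textbook target of the ER stress element. It stood at 985.7, 772.4, 1555 and 755.6 CPM in WT_NCD libraries 4, 5, 11 and 12. WT_HFD libraries 2, 3, 15 and 16 had 1356, 757.2, 855.3 and 623.8 CPM. In App_NCD it was at 927.5, 890.7, 959.0 and 608.1 CPM, and in App_HFD at 850.7, 931.1, 759.9 and 698.7 CPM. The highest libraries were thus WT_NCD 11 and WT_HFD 2, and the other 14 lay between 608.1 and 985.7 CPM in all groups. Erythroid markers were highest in WT_HFD 2, at 9049 CPM, and next in WT_HFD 16, at 4719 CPM. WT_HFD 16 had the lowest Hspa5 of the wild-type libraries, and WT_NCD 11 had 529.9 CPM of erythroid markers. A link of Hspa5 with these markers was not tested. In log2 terms the genotype difference in Hspa5 was -0.27 ± 0.262 (adjusted p = 0.534) under control feeding and -0.15 ± 0.262 (adjusted p = 0.896) under high fat. The high-fat-diet value was 0.10 without WT_HFD 2 and the control-diet value was -0.02 without WT_NCD 11.

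Xbp1 is the transcript that IRE1 splices. It stood at 134.0, 101.2, 91.6 and 87.1 CPM in WT_NCD, 73.7 to 110.7 in WT_HFD, 102.2, 114.8, 116.8 and 63.5 in App_NCD and 86.4 to 114.9 in App_HFD. All 4 groups overlapped. Knock-in minus wild type came, in log2, to -0.06 ± 0.203 (adjusted p = 0.875) under control feeding, 0.07 ± 0.160 (adjusted p = 0.791) there without 553, and 0.18 ± 0.203 (adjusted p = 0.791) under high fat.

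Atf6 encodes the sensor that is cut to a transcription factor. It was nearly constant in wild type, at 83.6 to 98.8 CPM in WT_NCD and 95.6 to 102.8 in WT_HFD. App_NCD libraries 537, 545 and 553 had 133.7, 102.9 and 150.9 CPM and 538 lay within the wild-type range. In CPM, 537 and 553 were thus the highest of the 16. The value of 553 rests on its scaling factor of 0.493. With 5314 of 71444546 counts, it would be the lowest of the 16 by plain totals. App_HFD libraries had 97.6, 107.8, 103.2 and 118.2 CPM. The genotype difference in log2 was 0.37 ± 0.141 on the control diet (edgeR, adjusted p = 0.110), 0.22 ± 0.112 without 553 (adjusted p = 0.192) and 0.12 ± 0.141 on the high-fat diet (adjusted p = 0.794). None passed the threshold after adjustment.

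Dnajb9 (ENSMUSG00000014905, chromosome 12, 44205559 to 44210326, minus strand) encodes ERdj4, a partner of BiP induced by spliced XBP1. It stood at 107.9, 80.5, 48.7 and 82.4 CPM in WT_NCD and 79.8 to 104.2 in WT_HFD. App_NCD 537, 538 and 545 had 93.8, 81.9 and 86.9 CPM, and App_HFD had 64.6 to 85.3. App_NCD 553 had 1536 CPM from 54109 counts, 14.2 times the highest of the other 15 libraries and 18.3 times their median. Those ratios use its scaling factor of 0.493 and would be lower with plain totals. Among 9902 genes that averaged 10 CPM or more, 16 had as high a ratio in 553 to the highest other library, and 9 of those were mitochondrially encoded. The log2 fold change on the control diet was 2.49 ± 0.774 (adjusted p = 0.0587) with 553 and 0.10 ± 0.191 (adjusted p = 0.752) without it. On the high-fat diet it was -0.21 ± 0.733 (adjusted p = 0.961). Dnajb9 passed the test when 537, 538 or 545 was left out, with adjusted p from 0.0307 to 0.0336, and with a minimum of 10 counts in every library (2.52, adjusted p = 0.0461). Each of these fits kept 553.

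**Figure D3:**
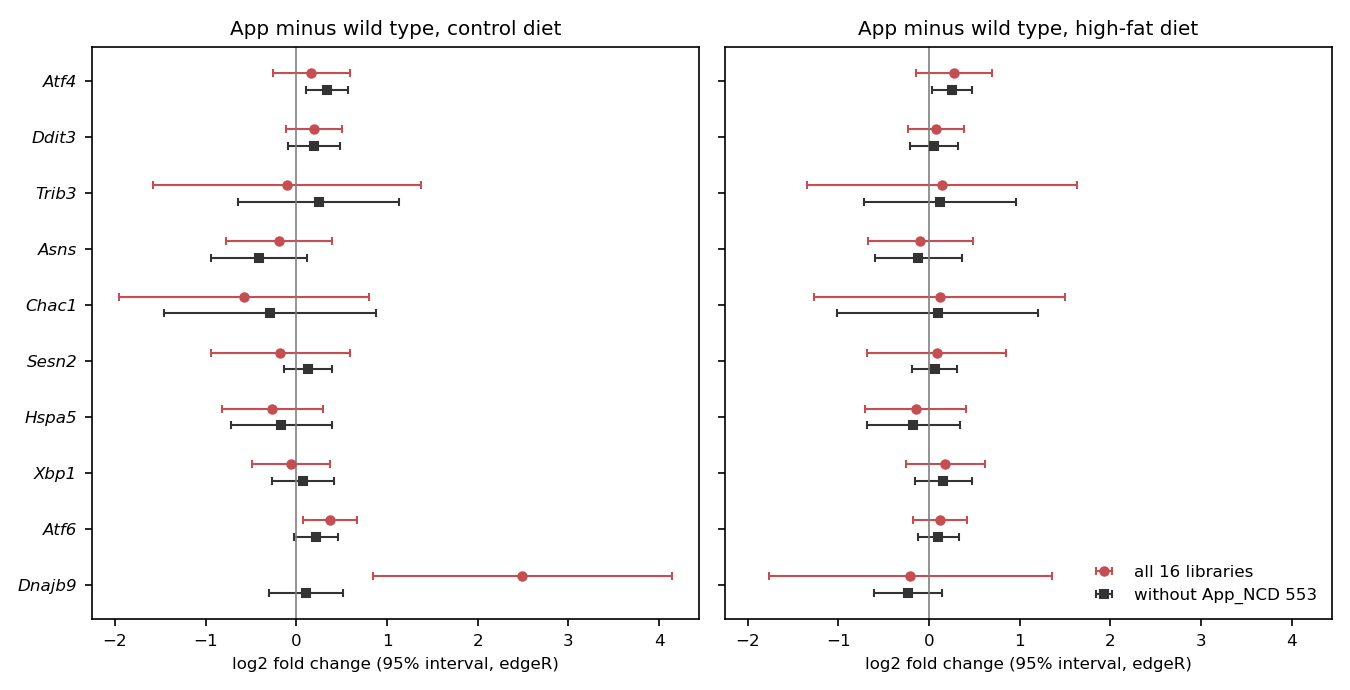
Log2 fold change, knock-in minus wild type, with its 95% interval from edgeR, for the 10 genes on the control diet (left) and the high-fat diet (right), with all 16 libraries (circles) and without App_NCD 553 (squares). The interval of Atf4 without 553 lies above 0 on each diet, and the circle of Dnajb9 on the control diet, at 2.49, moves to 0.10 when 553 is left out.

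App_NCD 553 was at an extreme for 8 of the 10 genes, and for 70.7% of all genes tested, 27.0% above and 43.7% below the other 15 libraries, so the members' count is close to the background. In these TMM-scaled CPM it lay below all other libraries for Atf4, Trib3, Chac1, Sesn2, Hspa5 and Xbp1, and above all others for Atf6 and Dnajb9. Its place for Atf6 depends on the scaling, as given above. For Ddit3 and Asns it lay within their range, which depends on the scaling too. With 669 and 58 of 71444546 counts, it would be the lowest of the 16 for each by plain totals. In that library BiP and its partner Dnajb9 thus stood at opposite ends.

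The second question is whether the high-fat diet changed these genes. None of the 10 passed in wild type or in the knock-in, and 0% of all genes passed in each of these comparisons in edgeR. At an unadjusted p under 0.05, 419 of the 21768 genes passed in wild type with 0 members among them, and 2586 passed in the knock-in with 1 member, Dnajb9. DESeq2 called 7 and 83 genes, with 0 members. The members' log2 fold changes, high-fat minus control diet, ran from -0.34 (Trib3, ± 0.694) to 0.21 (Sesn2, ± 0.360) in wild type, with a median of 0.00 beside -0.02 for all genes. In the knock-in they ran from -2.50 ± 0.774 for Dnajb9 (adjusted p = 0.391) to 0.47 ± 0.362 for Sesn2 (adjusted p = 0.597). Without 553, Dnajb9 stood at -0.14 ± 0.191 (adjusted p = 0.949) and Sesn2 at 0.14 ± 0.124 (adjusted p = 0.898), and the members ran from -0.47 ± 0.420 for Trib3 (adjusted p = 0.897) to 0.46 ± 0.248 for Asns (adjusted p = 0.758). In wild type 2.52% of genes, and in the knock-in 5.70% (8.20% without 553), had no overlap between the diets in CPM, and all 10 members overlapped. The diet comparison in the knock-in and the genotype comparison on the control diet share App_NCD, so 553 enters each.

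The test of whether the diet effect differed between genotypes called 0 of the 10 members and 0% of all genes in edgeR, and DESeq2 called 3 genes with no member among them. At an unadjusted p under 0.05, 639 genes passed, with 1 member. That was Dnajb9, at -2.70 ± 1.05 (edgeR, adjusted p = 0.851). Without 553 it was -0.33 ± 0.261 (adjusted p = 1). Chac1 had the highest interaction value, 0.69 ± 0.919 (adjusted p = 0.854), from fewer than 50 counts per library, and 0.39 ± 0.756 (adjusted p = 1) without 553.

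Other genes were read from 7 lists, 4 of this pathway and 3 for comparison. In the diet comparisons and the interaction, 0 genes of any list passed in edgeR, and 0 to 5 genes of a list had an unadjusted p under 0.05. In the list of stress sensors and eIF2 control (18 genes), 1 gene passed as higher in the knock-in on the control diet and 0 on the high-fat diet. It was Eif2ak2, at 1.08 ± 0.198 (adjusted p = 0.00299), the kinase PKR, which responds to double-stranded RNA and is induced by interferon. Mbtps1, a protease that cuts ATF6, and Ppp1r15b, which returns eIF2 to its unphosphorylated state, are the most abundant of the list. On the high-fat diet they did not pass, with log2 fold changes of 0.06 ± 0.245 for Mbtps1 and 0.20 ± 0.120 for Ppp1r15b (adjusted p = 0.970 and 0.464). Without 553, 2 genes passed on each diet. The added gene on the control diet was Ppp1r15a, the stress-induced counterpart (GADD34), at 0.97 ± 0.201 (adjusted p = 0.00424), and the high-fat-diet value was 0.85 ± 0.189 (adjusted p = 0.00519). With 16 libraries Ppp1r15a stood at 0.77 and 0.87 and did not pass (adjusted p = 0.0877 and 0.0661). It was named after its values were seen.

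In the ATF4 and CHOP list, 34 of 35 genes were tested. On the control diet 3 were higher and 1 lower in the knock-in, and on the high-fat diet 4 were higher and 0 lower. The list's median log2 fold change was -0.10 and 0.16. Without 553 the counts were 5 higher and 3 lower, and 8 higher and 2 lower, while the share of all genes passing went from 8.39% to 17.5% and from 7.14% to 19.3%. Atf3, a stress-induced factor that is also an immediate early gene, rose from 146.2 to 292.5 CPM in WT_NCD to 510.8, 597.7, 551.7 and 202.9 in App_NCD, the last in 553, which overlapped the wild type. Its log2 fold change was 1.22 ± 0.304 (adjusted p = 0.0219) under control feeding and 1.68 ± 0.308 (adjusted p = 0.00329) under high fat. Cebpg, a partner of ATF4 at the element printed above, rose by 0.59 ± 0.120 (adjusted p = 0.00636) and 0.67 ± 0.120 (adjusted p = 0.00281). It stood at 46.9 to 49.1 CPM in WT_NCD and 66.7 to 79.0 in App_NCD, 553 included, with no overlap.

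Aldh18a1, which makes proline precursors, rose by 0.66 ± 0.147 (adjusted p = 0.0105) under control feeding and 0.66 ± 0.147 (adjusted p = 0.0112) under high fat. Gdf15, a secreted stress hormone, rose on the high-fat diet by 1.95 ± 0.509 (adjusted p = 0.0289) and stood at 1.33 ± 0.499 (adjusted p = 0.109) under control feeding. The large amino acid transporter gene Slc7a5, known as a target of ATF4, fell on the control diet by 0.85 ± 0.221 on the log2 scale (adjusted p = 0.0270). Without 553, Gdf15 passed on the control diet too, at 1.66 ± 0.284 (adjusted p = 0.000996). Asns, Trib3 and Chac1 were counted among the members and not in this list. They did not pass on either diet, and the intervals of Trib3 and Chac1 given above were wide.

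Among 20 chaperone and folding genes, 0 passed on either diet with 16 libraries, in edgeR. At an unadjusted p under 0.05, 6 did on the control diet and 1 on the high-fat diet. These counts have no share of all genes beside them and are not read as a result about the list. Hsp90b1, the chaperone GRP94, stood at 0.66 ± 0.279 (adjusted p = 0.146) and -0.02 ± 0.277 (adjusted p = 0.991). Without 553, which held 2626 CPM of it against 714 to 1541 elsewhere, the control-diet value was 0.25 ± 0.211 (adjusted p = 0.439). Calr, the lectin chaperone calreticulin, stood at 0.42 ± 0.182 (adjusted p = 0.155) and 0.29 ± 0.182 (adjusted p = 0.472). Without 553, 2 passed on the control diet and 1 on the high-fat diet. Sdf2l1, a partner of BiP named here after its values were seen, was in each count, at 1.16 ± 0.215 (adjusted p = 0.00191) and 0.95 ± 0.202 (adjusted p = 0.00390).

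Of 20 degradation and translocation genes, 3 were higher and 0 lower on each diet, and without 553 there were 5 higher and 0 lower on the control diet and 5 higher and 1 lower on the high-fat diet. Over all genes, 8.39% and 7.14% passed with 16 libraries and 17.5% and 19.3% without 553, so the share passing rose in all genes as well. Edem1, which directs misfolded glycoproteins to degradation and is induced by spliced XBP1, had the smallest adjusted p. It stood at 105.1, 82.3, 100.7 and 79.9 CPM in WT_NCD and 74.4 to 95.4 in WT_HFD, and at 188.1, 176.3, 168.2 and 169.5 CPM in App_NCD and 161.6 to 195.5 in App_HFD. No App library overlapped a wild-type library, and 553 lay among the other App libraries. The log2 fold change was 0.93 ± 0.128 (adjusted p = 0.000265) and 1.06 ± 0.128 (adjusted p = 9.13e-05). Os9, which hands such proteins to the degradation complex, rose by 0.58 ± 0.127 (adjusted p = 0.00981) and 0.46 ± 0.127 (adjusted p = 0.0389). The ubiquitin-conjugating gene Ube2j1 rose by 0.82 ± 0.162 (adjusted p = 0.00517) under control feeding, and Edem2 by 0.76 ± 0.184 (adjusted p = 0.0195) under high fat.

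In the 3 lists from outside this pathway, calls were as follows. Of 14 cytosolic heat shock genes, 1 was higher and 1 lower on each diet. These were Bag3, a co-chaperone of selective autophagy, at 0.55 ± 0.140 (adjusted p = 0.0236) and 0.62 ± 0.141 (adjusted p = 0.0133), and Hspb1, a small heat shock protein, at -0.84 ± 0.220 (adjusted p = 0.0282) and -0.86 ± 0.220 (adjusted p = 0.0268). Of 10 mitochondrial chaperone and protease genes, 1 was higher on each diet, Hspe1, at 0.58 ± 0.165 (adjusted p = 0.0408) and 0.58 ± 0.165 (adjusted p = 0.0461). Of 19 immediate early genes, which tissue dissociation also raises, 3 were higher on the control diet and 9 on the high-fat diet, with list medians of 0.61 and 0.74. Egr2 rose by 2.15 ± 0.184 (adjusted p = 3.2e-06) and 1.71 ± 0.181 (adjusted p = 3.16e-05), and Zfp36 by 1.35 ± 0.299 (adjusted p = 0.0111) and 1.52 ± 0.300 (adjusted p = 0.00538). Egr1 rose by 2.04 ± 0.326 (adjusted p = 0.00102) and 1.28 ± 0.319 (adjusted p = 0.0231). Jun rose by 0.88 ± 0.204 (adjusted p = 0.0149) and Btg2 by 1.31 ± 0.313 (adjusted p = 0.0183) under high fat.

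**Figure D4:**
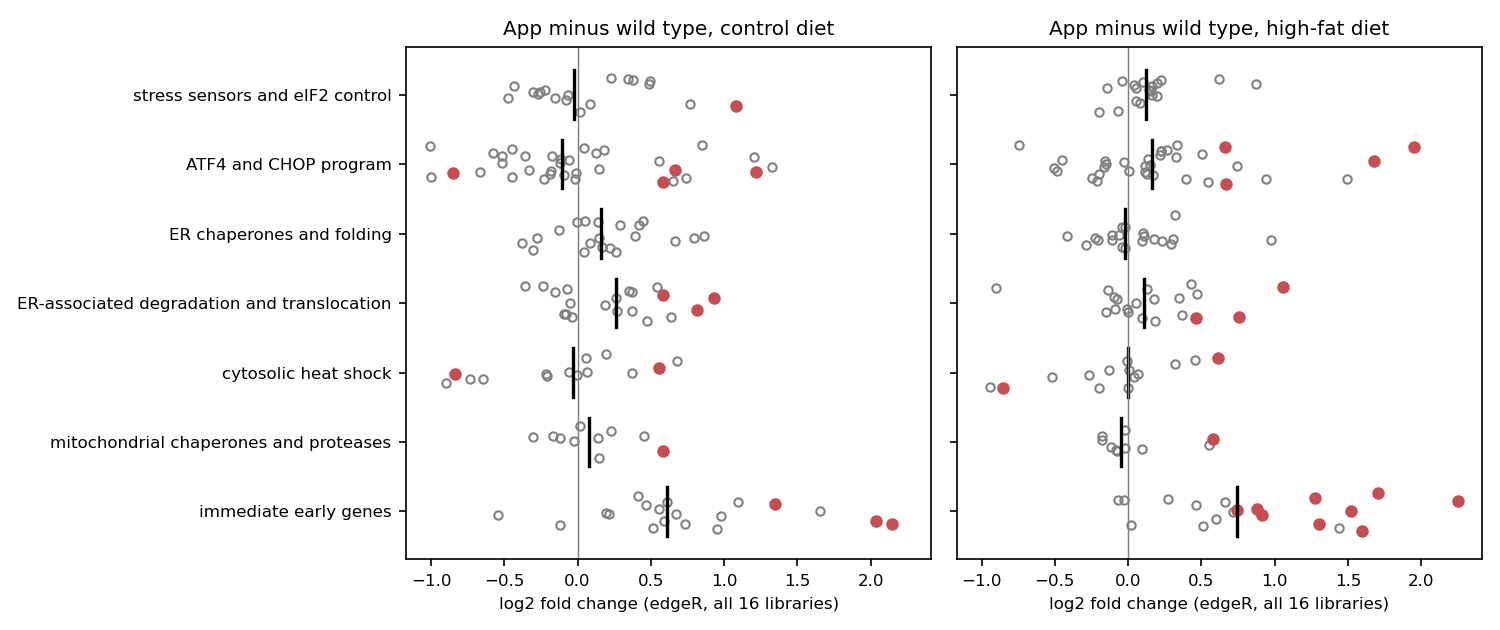
Log2 fold change, knock-in minus wild type, of each tested gene in the 7 lists on the control diet (left) and the high-fat diet (right), with all 16 libraries; filled points passed at an adjusted p under 0.05, open points did not, and the bar is the list median. Chaperone and folding genes have no filled point, degradation and translocation genes have 3 on each diet, and immediate early genes have the highest medians, 0.61 and 0.74.

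Across libraries, Hspa5 varied together with the chaperones of the endoplasmic reticulum. Over the 15 libraries without 553, the genes of at least 10 CPM most like Hspa5 among 9902 searched were Creld2 (Pearson r of log2 CPM 0.93) and Pdia6 (0.93), then Il11ra1 (0.89), Ogfod3 (0.89) and Cyld (0.88). Over all 16 libraries these r were 0.92, 0.88, 0.76, 0.86 and 0.62. Creld2, a secreted protein of the folding pathway, and Pdia6, a disulfide isomerase, hold the ER stress element printed above, as Hspa5 does. Il11ra1, Ogfod3 and Cyld were not read for the element. In the chaperone and folding list, the 6 genes with the element had a median r with Hspa5 of 0.75 (0.46 to 0.93). The 11 without a match had a median of 0.56 (-0.30 to 0.84), so the ranges overlapped. Whether the element bears on the likeness was not tested. Creld2 was at 60.5 CPM in WT_NCD 11 and 52.6 in WT_HFD 2, against 23.3 to 42.7 in the other 14. Without those 2 libraries, the farthest in Hspa5, r over 13 was 0.83 for Creld2 and 0.90 for Pdia6, and from 0.65 to 0.78 for the other 3. The 20 chaperone and folding genes had a median r with Hspa5 of 0.67, and 14 of them were over 0.5, while the 20 degradation and translocation genes had a median of -0.07 with 4 over 0.5. All 9901 genes searched beside Hspa5 had a median of 0.02, and 1349 were over 0.5. Over the 13 libraries without WT_NCD 11 and WT_HFD 2, the medians were 0.60 for the chaperone list (13 over 0.5), 0.30 for the degradation list (6 over 0.5) and 0.03 for all genes (793 over 0.5). The gap between the lists was thus smaller without those 2 libraries. All points share the library, so these values are descriptions without a test.

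**Figure D5:**
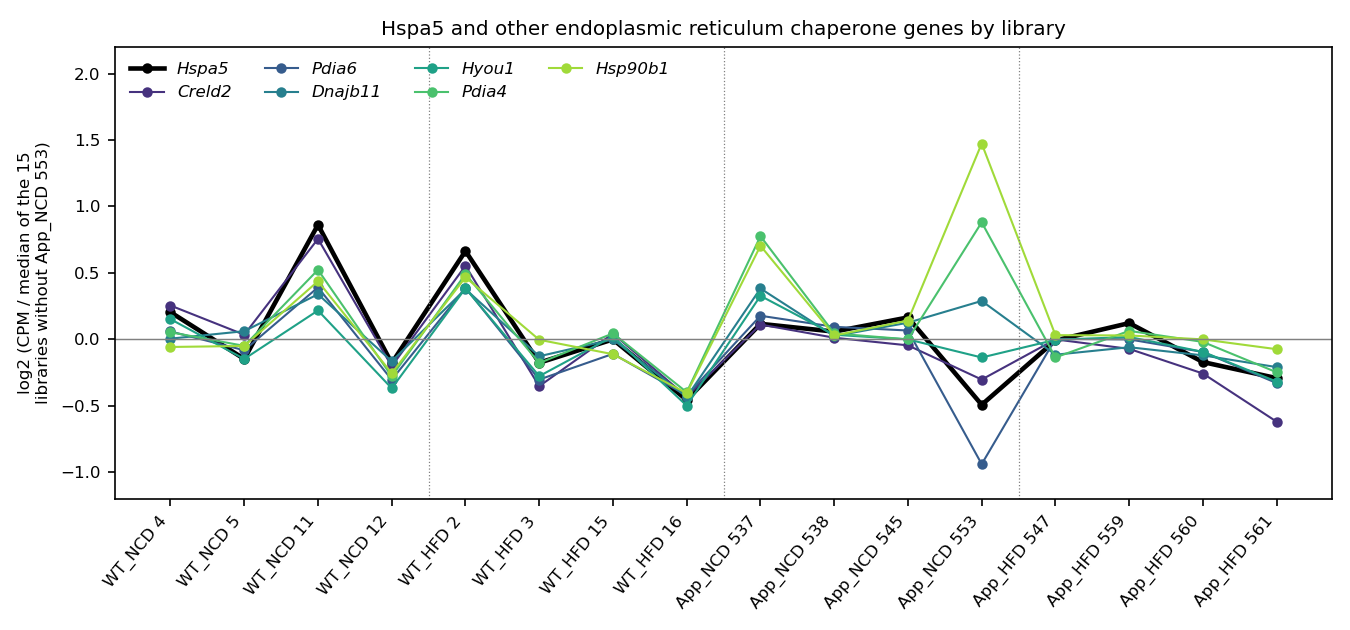
Log2 ratio of CPM to the median of the 15 libraries without App_NCD 553, for Hspa5 and 6 other chaperone genes of the endoplasmic reticulum, by library, with dotted lines between groups. All 7 lines lie above 0 at WT_NCD 11 and WT_HFD 2 and below 0 at WT_HFD 16, and at App_NCD 553 they spread apart, with Hsp90b1 at 2626 CPM and Pdia6 at 104.0 CPM.

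The member most like Atf4 over the 15 libraries was Ddit3 (r = 0.61), and Ddit3 was most like Xbp1 (0.63). Trib3 and Hspa5 were most like each other (0.68), as were Sesn2 and Dnajb9 (0.54). Atf6 was most like Sesn2 (0.50), Chac1 most like Hspa5 (0.30) and Asns most like Chac1 (0.12). Without the 2 libraries farthest in the first gene of each pair, r was 0.58 for Atf4 with Ddit3, 0.40 for Ddit3 with Xbp1, 0.62 for Trib3 with Hspa5, 0.37 for Sesn2 with Dnajb9 and 0.71 for Atf6 with Sesn2. With 553 the r of Sesn2 and Dnajb9 was -0.90 and that of Atf4 and Ddit3 was 0.38. Among all genes searched, Asns was most like Rsbn1 (0.79), Lbr (0.76), Tcp11l2 (0.76), Ccdc137 (0.75) and Trnt1 (0.75), and with 553 the r of Lbr was 0.20 and that of Ccdc137 was 0.06.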

How the data were processed

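Per the submitters' processing notes, the tools named were fastp 0.23.2, HISAT2 2.2.1, StringTie 2.2.1 and bedtools 2.25.0, with the mouse build mm10. The authors deposited estimated counts per gene, whole numbers as StringTie gives them, for 16 libraries of poly(A) RNA. The annotation they counted against, and whether strand was used, are not given in the sources used here. The members and gene lists were chosen with earlier results of these data known.

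From these counts, genes were filtered by filterByExpr, scaled by TMM and fitted with edgeR 4.0.16 (R 4.3.3, limma 3.58.1) by robust quasi-likelihood in 4 groups with 12 residual degrees of freedom. P-values were adjusted by Benjamini-Hochberg over all genes tested, with a threshold of 0.05. CPM use TMM-adjusted totals, and the prior count on the log2 scale was 0.5. Standard errors were derived from the fold change and the F statistic. The main edgeR fit was repeated without App_NCD 553. With all libraries, the control-diet genotype contrast of that fit was checked on simulated counts, in which no library stood apart as 553 does. The other contrasts and fits were not simulated. The text names all members, up to 4 called genes of each list and genotype comparison by smallest adjusted p, or the 2 of highest mean CPM where none was called. Genes outside this rule are said to be so. Alternatives were RLE factors, library totals, scaling to mature oligodendrocyte markers, other count filters, pairs of groups alone, DESeq2 1.42.0 and leaving out each library. Of the gene IDs, 99.664% were in GENCODE vM21, which gave positions and exon lengths on mm10. No promoter of Atf6 and no protein sequence was used here.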

Additional observations from a re-analysis of the deposited data

Results flagged for a closer look

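Of 40 tests of a member in a group, 2 had a library far from the other 3 by Dixon's criterion, and chance flags about 1 in 20. Dnajb9 stood at 1536 CPM in App_NCD 553, with the next library of that group at 93.8 CPM. Dnajb9 also stood at 64.6 CPM in App_HFD 561, with the next library at 83.8 CPM.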

How the results depend on the processing

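No paired analysis was possible because the groups share no replicate number. Of the alternatives that kept all libraries of a fit or left out several, 379 values kept direction and side of the threshold, 55 lost a call, 9 gained one and 12 changed sign. The cause was not tested. With library totals, the control-diet log2 fold changes of Atf4 and Ddit3 were -0.030 and -0.082, and the high-fat-diet values of Ddit3, Sesn2 and Mbtps1 were -0.021, -0.013 and -0.038. With scaling to oligodendrocyte markers, the control-diet values of Trib3, Sesn2 and Xbp1 were 0.076, 0.044 and 0.066, and Hsp90b1 on the high-fat diet was 0.074. Hspa5 on the control diet was 0.10 with that scaling and without 553.

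In fits added after seeing the data, leaving out 553, WT_NCD 11 and WT_HFD 2 gave Hspa5 values of 0.16 and 0.13 and 1 member called on the control diet. Among all genes, 3413 of 21882 passed on that diet in that fit. Leaving out 553, WT_NCD 4 and WT_HFD 16 gave 1 member called on each diet, beside 4448 and 4769 of 21998 genes. Those pairs of wild-type libraries were the highest in wild type for Hspa5 and for Atf4, in that order, so neither fit is support for a difference. A minimum of 10 counts in every library gave 1 member called on the control diet, beside 2069 of 15463 genes. The average over diets without 553 gave 1, beside 33.6% of all genes.

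Leaving out 1 library at a time, 922 values kept direction and side of the threshold, 91 lost a call, 10 gained one and 17 changed sign. It gave 0 to 1 members called on the control diet and 0 in the other comparisons. Among all genes, these fits called from 939 of 22017 to 3900 of 22322 on the control diet. On the high-fat diet they called from 869 of 22060 to 4307 of 22322. On the control diet the log2 fold changes ran from -0.0091 to 0.34 for Atf4, -0.49 to 0.29 for Trib3, -0.41 to 0.13 for Sesn2 and -0.18 to 0.075 for Xbp1. On the high-fat diet they ran from -0.036 to 0.11 for Ddit3, -0.064 to 0.27 for Trib3, -0.25 to 0.15 for Asns, -0.26 to 0.29 for Chac1 and -0.026 to 0.11 for Sesn2. They ran from -0.32 to 0.10 for Hspa5, -0.18 to 0.14 for Hsp90b1 and -0.0072 to 0.079 for Mbtps1. For diet in wild type, Trib3 ran from -0.60 to 0.087. Over the alternatives, calls among all genes ran from 505 to 4448 on the control diet and 777 to 4816 on the high-fat diet, against 1826 and 1554. Diet calls reached 7 in wild type, 83 in the knock-in and 3 for the interaction, all from 0. Depth limits Chac1, at 5 to 49 counts in the libraries other than 553.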
